A study of Arabidopsis thaliana with 12 samples.

Results

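The light response of the Arabidopsis thaliana mutant atrx-2 was measured in 6 of the 12 RNA-seq libraries of the series: the 3 atrx-2 libraries labelled low light against the 3 atrx-2 libraries labelled normal light. Membership followed from the labels alone, and estimated counts of all 33602 listed genes were used, of which 20783 passed the filter on low counts and were tested. All plants were whole seedlings aged 10 days, kept in a greenhouse at 21 °C in days of 16 h light and 8 h dark. Normal light was 130 µmol and low light 30 µmol per square metre and second. The wild-type (Col-0) libraries, 3 at each light level, share these conditions. They were fitted together with the mutant libraries, so they enter the filter, scaling and estimate of spread behind the mutant p-values. Wild-type values are given only beside the mutant values.

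ATRX is a chromatin remodeller of the SWI/SNF type that places the histone variant H3.3 together with histone chaperones. Plants moved to dimmer light are known to enlarge the antenna complexes that collect light for the photosystems, to invest less in carbon fixation, and to need less protection against excess light. Light also sets the circadian clock, drives starch turnover through the sugars it yields, and represses or induces many regulators through the phytochromes, cryptochromes and UVR8.

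ATRX itself (AT1G08600, chromosome 1, 2723677 to 2733613) had 20, 18 and 16 counts in the atrx-2 libraries under normal light and 7, 6 and 15 under low light. This was 1.02, 0.932 and 0.799 CPM (counts scaled to library size) against 0.399, 0.405 and 0.712 CPM, far under the 35.1 to 45.5 CPM of the wild-type libraries. The 2 light levels did not overlap within the mutant, and the residual level was lower under low light by 0.80 on the log2 scale (SE 0.29, adjusted p = 0.0452). That call was lost in 12 of 21 alternative settings, with adjusted p between 0.0213 and 0.729. atrx-2 is a single allele, and no other allele was analysed here.

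Library totals ran from 17473347 to 18826592 counts at normal light and from 16110578 to 21435554 at low light. The 18S ribosomal RNA locus took 5.28%, 3.70% and 8.64% of the counts at normal light and 9.77%, 15.4% and 12% under low light. Loci of the chloroplast genome took 2.29% to 3.55% and then 4.91% to 7.12%, and loci of the mitochondrial genome 0.184% to 0.238% and then 0.365% to 0.487%. In each case the 2 light levels did not overlap, and the wild-type libraries were also higher under low light. The labels name total RNA and state no selection step. The part of these shares in the results was not tested beyond leaving those loci out, which changed the number of genes called by less than 1.5 times. CPM values were scaled by TMM (trimmed mean of M values), and the median log2 change over all 20783 genes was 0.007.

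**Figure D1:**
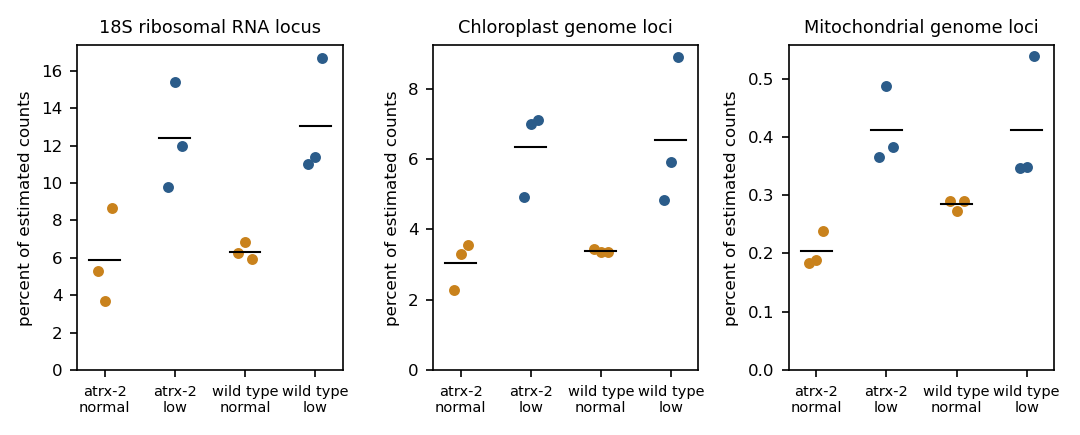
Share of each library's estimated counts (percent, vertical axis from 0) taken by the 18S ribosomal RNA locus, by chloroplast genome loci and by mitochondrial genome loci. Points are libraries, 3 in each group, orange for normal and blue for low light, and lines are group means; in atrx-2 the chloroplast share was 2.29% to 3.55% at normal light and 4.91% to 7.12% at low light.

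Leaf and root markers were checked against the label of whole seedlings. The root list summed to 248 to 258 CPM under normal light and 253 to 286 CPM under low light, and the leaf list, without CAB3 and CA1, to 158 to 175 and 157 to 166 CPM. Seed and pollen markers summed to 1.3 to 2.08 and 1.03 to 2.23 CPM. These ranges overlapped between the light levels. In whole seedlings, fewer cells of a type and less RNA per cell cannot be told apart. Replicates are numbered in the labels without a statement that each was grown on its own, so a p-value here reflects the variation among these libraries alone, which could be technical.

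Low light changed the level of a large part of the transcriptome in atrx-2. Of the 20783 genes, 3353 (16.1%) rose and 3517 (16.9%) fell at an adjusted p under 0.05 in edgeR's quasi-likelihood test, 6870 (33.1%) in all. Most changes were small: the median called rise was 1.43-fold and the median called fall 1.54-fold, and 57.6% of the rises and 46.1% of the falls were under 1.5-fold. At least 2-fold changes were called for 577 rises (2.78%) and 900 falls (4.33%), and at least 8-fold for 29 rises and 65 falls. A test against a 1.5-fold change left 492 rises and 782 falls. The replicates of the 2 light levels did not overlap for 9558 genes (46%). In a principal component analysis of the 6 libraries, component 1 took up 63.2% of the variance, and the normal-light libraries had scores of -43.68 to -39.11 and the low-light libraries 36.58 to 44.85.

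The wild type gave 7113 calls (34.2%), 3449 higher (16.6%) and the other 3664 lower. Of the genes called in atrx-2, 2488 rose in both genotypes and 2691 fell in both, while 2 rose in the mutant and fell in the wild type and 1 the other way round. The sign was the same in 6769 of the 6870 genes (98.5%). Across the 20783 genes, which are not independent replicates, the 2 sets of log2 changes had a Pearson r of 0.821 and a Spearman rho of 0.806. The 2 contrasts use different libraries. The test of the difference between the responses, a genotype by light interaction, called 1 gene (0.00481%), bHLH38, which is described with the iron genes below, and gave an unadjusted p under 0.05 for 915 genes (4.4%). DESeq2 called 3.

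**Figure D2:**
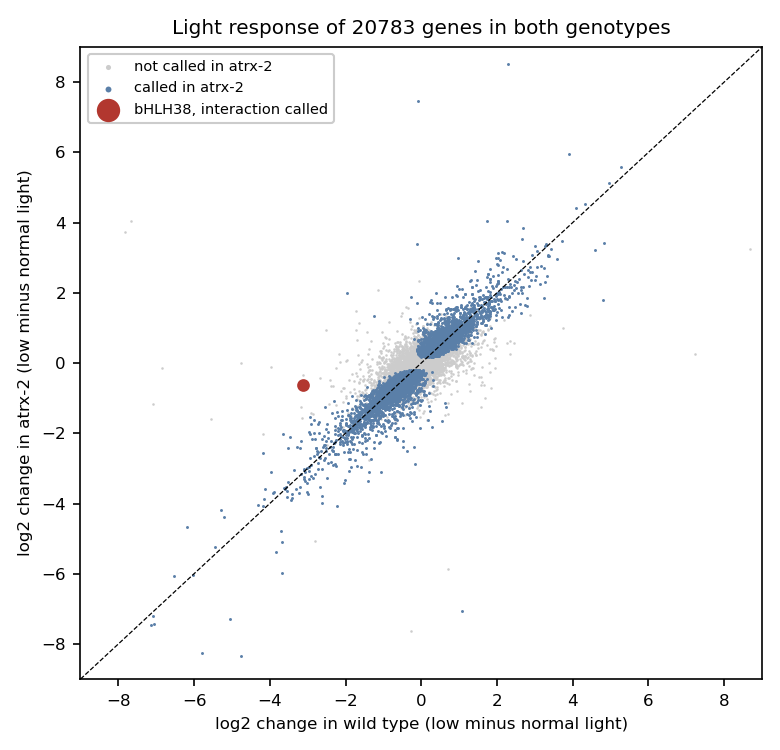
Log2 change under low light in atrx-2 (vertical axis) against that in wild type (horizontal axis) for the 20783 tested genes, with the line of equal change dashed. Blue points are the 6870 genes called in atrx-2, and the red point is bHLH38 (-0.63 in atrx-2 and -3.13 in wild type), the gene whose interaction was called.

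Light-harvesting antenna genes rose, with the exception of a few minor members. Of the 15 tested antenna genes of photosystem II, 12 rose and 2 fell (median log2 change 0.38, against 0.007 for all genes). In the photosystem I antenna, LHCA1 to LHCA4 rose by 1.31 to 1.44-fold, and LHCA5 and LHCA6, which link the complex to NDH, fell by 1.18-fold and 1.39-fold. The fall of LHCA5 was lost without normal-light replicate 1 (adjusted p = 0.126) or 2 (0.0533), or without low-light replicate 1 (0.0682) or 3 (0.122).

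LHB1B1 (LHCB1.4, AT2G34430, chromosome 2, 14524607 to 14525918), which encodes a subunit of the major trimeric antenna LHCII, had 497, 520 and 493 CPM under normal light and 3393, 2959 and 2794 CPM under low light. The groups were far apart, and the rise was 6.06-fold (log2 2.60, SE 0.09, adjusted p = 1.62e-10). CAB1 (LHCB1.3), another LHCII subunit, went from 6296, 6602 and 5983 to 15644, 14150 and 12993 CPM, a 2.27-fold rise (adjusted p = 6.94e-08). CAB3 rose by 1.98-fold, CAB2 by 1.5-fold and LHB1B2 by 1.4-fold. Differences in response among these 5 genes of the LHCB1 group were not tested. Their sequences are not fully unique: between 10.6% (CAB3) and 20.5% (CAB2) of their 50-base windows have an exact second match elsewhere in the genome. Their separate values are therefore uncertain.

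The monomeric antenna genes did not share a direction. LHCB4.1, LHCB5 and LHCB6, chosen after their values were seen, rose by 1.39, 1.3 and 1.26-fold. LHCB4.2 was at 1559, 1729 and 1609 CPM and then 1818, 1746 and 1606 CPM, which did not pass the test (adjusted p = 0.433). LHCB4.3, a CP29 isoform known to accumulate in strong light, fell from 54.6, 49.8 and 45.5 to 7.41, 10.8 and 8.36 CPM, 5.68-fold (log2 -2.51, SE 0.16, adjusted p = 3.78e-08). AT1G76570 (LHCB7) fell by 2.60-fold. Both low-light groups lay entirely below the normal-light groups.

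**Figure D3:**
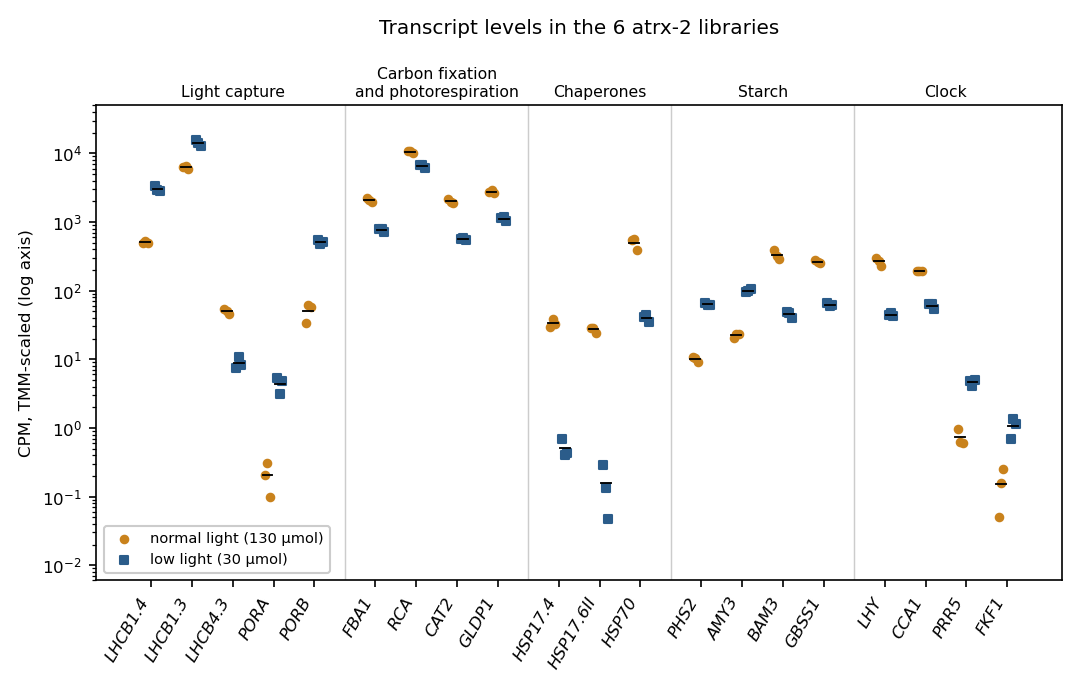
TMM-scaled CPM (log axis) of 20 genes in the 6 atrx-2 libraries, grouped by role. Circles are the 3 normal-light and squares the 3 low-light libraries, and short lines are group means; LHB1B1 (LHCB1.4), PORA, PORB, PHS2, AMY3, PRR5 and FKF1 lie higher under low light, and LHCB4.3, FBA1, CAT2, HSP17.4, BAM3, GBSS1, LHY and CCA1 lower, with no overlap between the light levels.

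Of the 25 tested genes of chlorophyll synthesis, 15 rose and 1 fell (median log2 0.34), while leaving out 1 library gave 0 to 2 falls. PORA and PORB, the light-dependent protochlorophyllide oxidoreductases, led the rises. PORB had 33.4, 62.0 and 56.9 CPM under normal light and 540, 472 and 513 CPM under low light, 10.0-fold higher (log2 3.32, SE 0.20, adjusted p = 3.07e-08). PORA, known as the form of dark-grown seedlings, went from 0.203, 0.311 and 0.0999 to 5.30, 3.17 and 4.80 CPM, 21.2-fold higher (adjusted p = 1.25e-07). In neither gene did the light levels overlap. HEMC, HEME1, HEME2 and CHLI2, enzymes of tetrapyrrole synthesis and a magnesium chelatase subunit, rose by 1.88, 1.86, 1.65 and 1.59-fold. GUN5, the large chelatase subunit, was at 1972 to 2161 CPM and then 1798 to 2000 CPM (adjusted p = 0.344). Among 9 tested genes of chlorophyll breakdown, 1 rose and 5 fell; the falls included CLH1, a chlorophyllase, at 2.49-fold, and NYE1, the magnesium dechelatase, at 1.55-fold. The lower count was 3 without normal-light replicate 1 or 2 or low-light replicate 2, and 2 without low-light replicate 3, and the higher count ranged from 0 to 2.

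The stretches of 250 bases before the gene starts of PORA and PORB are shown because both hold the evening element AAAATATCT (in capitals), a motif of many evening-phased genes. They were read from the RefSeq TAIR10.1 genome and are written 5′ to 3′ toward the gene.
PORA (chr5:21992815-21993064, minus strand): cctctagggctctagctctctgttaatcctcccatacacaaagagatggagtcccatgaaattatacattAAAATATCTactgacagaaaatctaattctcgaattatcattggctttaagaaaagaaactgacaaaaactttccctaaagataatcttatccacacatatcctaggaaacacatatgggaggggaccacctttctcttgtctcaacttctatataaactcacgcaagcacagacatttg
PORB (chr4:13725296-13725545, plus strand): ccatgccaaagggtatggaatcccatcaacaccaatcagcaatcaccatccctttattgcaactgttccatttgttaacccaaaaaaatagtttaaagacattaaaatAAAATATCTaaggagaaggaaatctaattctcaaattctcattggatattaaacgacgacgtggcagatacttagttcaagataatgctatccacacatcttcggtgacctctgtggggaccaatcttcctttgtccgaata

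Both strands were searched for each motif, over 20528 genes with such a stretch. AAAATATCT stood before 497 of them (2.42%), before 4.83% of the genes called higher and 1.83% of those called lower. Among genes that rose at least 2-fold, 50 of 529 (9.45%) held it, and among those that fell at least 2-fold, 14 of 888 (1.58%). A match is a string of letters in a fixed window and was not tested for use.

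Nuclear genes of the photosystems and electron transport were split: 13 of 31 rose and 7 fell (median log2 0.11). This was 64.5% called, against the 33.1% of all genes. Photosystem I subunits were among the rises, with PSAE-2 at 1.56-fold, PSAO at 1.55-fold and PSAG at 1.49-fold. FNR2, a ferredoxin-NADP reductase of the leaf, went from 186, 190 and 173 to 394, 352 and 361 CPM, 2.01-fold higher (adjusted p = 2.40e-07). FD1, a leaf ferredoxin, went from 994, 972 and 839 to 254, 255 and 209 CPM, 3.91-fold lower (adjusted p = 1.49e-08). NPQ4 (PsbS), the sensor of thermal energy dissipation, fell by 1.63-fold. The number lower was 3 without normal-light replicate 1 or 2 or low-light replicate 3, and 4 without low-light replicate 2.

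Genes of carbon fixation fell as a group. In the list of Rubisco and the Calvin cycle, 14 of 19 fell and none rose (median log2 -0.52). FBA1, a plastid aldolase, had 2266, 2097 and 1985 CPM under normal light and 787, 784 and 703 CPM under low light, 2.79-fold lower (log2 -1.48, SE 0.09, adjusted p = 3.04e-08). CP12-2, a small redox-controlled inhibitor of the cycle, fell by 2.99-fold. RCA, which reactivates Rubisco, went from 10734, 10688 and 10176 to 6772, 6840 and 6207 CPM, and GAPA, a subunit of the plastid glyceraldehyde phosphate dehydrogenase, fell by 1.6-fold. RBCS1A, a small subunit of Rubisco, did not pass the test at 9688 to 11100 and then 9085 to 9874 CPM (adjusted p = 0.218). RBCS1B, RBCS2B and RBCS3B fell by 1.67, 1.62 and 1.43-fold, but 12% to 16.9% of their windows have a second match, so their separate values are uncertain.

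All 11 tested photorespiration genes fell (median log2 -0.75). CAT2 (AT4G35090), the catalase that removes hydrogen peroxide made in leaf peroxisomes, went from 2157, 1950 and 1895 to 566, 588 and 542 CPM. The groups did not overlap and the fall was 3.54-fold (log2 -1.82, SE 0.09, adjusted p = 7.02e-09). GLDP1, a glycine decarboxylase subunit, fell by 2.47-fold, HPR, the hydroxypyruvate reductase, by 2.36-fold, and GOX1, a glycolate oxidase, by 2.1-fold. PGLP1, the phosphoglycolate phosphatase, fell by 1.68-fold, but every one of its windows (100%) has a second match. CA1, a carbonic anhydrase of the chloroplast, fell from 2706, 3021 and 2800 to 1525, 1475 and 1352 CPM, and PIP2A, an aquaporin, from 2102, 1912 and 1869 to 953, 969 and 889 CPM.

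Most genes of protection against strong light had lower transcript levels. Of 18 tested genes in that list, 10 fell and 2 rose (median log2 -0.47), and the number higher was 4 without normal-light replicate 1 and 1 without any other mutant library except low-light replicate 1. VTC2, the rate-limiting enzyme of ascorbate synthesis, had 600, 450 and 382 CPM and then 141, 128 and 111 CPM, 3.76-fold lower (adjusted p = 2.28e-06). GPX7, a plastid glutathione peroxidase, went from 18.3, 12.4 and 12.6 to 1.94, 1.96 and 2.42 CPM, 6.78-fold lower. ELIP1 and ELIP2, early light-induced proteins, fell by 2.59-fold and 2.75-fold. APX2, an ascorbate peroxidase of high light, had 31 counts over the 3 normal-light libraries and 2 over the low-light libraries, a ratio of 14.0 with a 95% counting interval of 3.57 to 121.

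Among the flavonoid enzymes, 12 of 17 fell and none rose (median log2 -0.91). TT4, the chalcone synthase that opens the pathway, had 413, 404 and 375 CPM and then 148, 145 and 136 CPM, 2.78-fold lower (adjusted p = 1.68e-07). 4CL3, F3H and FLS1, which act before and after it on the way to flavonols, fell by 2.95, 2.44 and 2.31-fold, and UGT78D1 and UGT78D2, flavonol glycosyltransferases, by 2.22 and 2.16-fold. Among the regulators, MYB12, an activator of flavonol genes, fell by 2.40-fold. MYBL2, a repressor of anthocyanin synthesis, rose from 32.8, 30.5 and 31.7 to 83.1, 75.1 and 71.1 CPM, 2.41-fold. In all, 2 of 10 regulators rose and 2 fell, 40% called against the 33.1% of all genes. The number lower was 1 without low-light replicate 2.

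Small heat shock protein genes showed the steepest group fall by median among the 40 lists, which were chosen with earlier results of these data known. Of 13 tested small heat shock protein genes, 10 fell and 1 rose (median log2 -2.53, against 0.007 for all genes). HSP17.6II, a cytosolic small chaperone, had 28.4, 28.8 and 24.4 CPM under normal light and 0.285, 0.135 and 0.0475 CPM under low light, 174-fold lower (log2 -7.44, SE 0.38, adjusted p = 6.89e-09). HSP17.4 went from 29.1, 38.7 and 32.7 to 0.684, 0.405 and 0.427 CPM, 65.4-fold lower (adjusted p = 1.32e-10), and AT1G53540 from 11.7, 19.6 and 18.4 to 0.171, 0.0675 and 0.427 CPM. HSP23.6-MITO, the mitochondrial form, had 62 counts over the normal-light libraries and 0 over the low-light libraries, at least 18.7-fold lower, taking 3 counts over the group as the floor. HSP18.2 did not pass the test, with 2.08 to 2.95 and then 1.23 to 2.34 CPM (adjusted p = 0.246). AT4G21870, named after its values were seen, was the member that rose, by 1.24-fold. The number higher was 0 without normal-light replicate 2 or 3, low-light replicate 2 or 3, wild-type normal-light replicate 1 or wild-type low-light replicate 2. With a filter of 5 CPM, which tests fewer genes, the list's median was -4.10.

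Upstream stretches of HSP17.4 and AT1G53540 are shown because each holds paired heat shock element half-sites. The matches of GAANNTTC or TTCNNGAA are in capitals, and neighbouring matches overlap in the run shown.
HSP17.4 (chr3:16984868-16985117, minus strand): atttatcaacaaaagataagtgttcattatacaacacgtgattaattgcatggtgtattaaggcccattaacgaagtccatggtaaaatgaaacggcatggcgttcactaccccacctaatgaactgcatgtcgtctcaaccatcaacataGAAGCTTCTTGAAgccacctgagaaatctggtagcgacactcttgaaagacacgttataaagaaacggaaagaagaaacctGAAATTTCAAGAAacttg
AT1G53540 (chr1:19980049-19980298, plus strand): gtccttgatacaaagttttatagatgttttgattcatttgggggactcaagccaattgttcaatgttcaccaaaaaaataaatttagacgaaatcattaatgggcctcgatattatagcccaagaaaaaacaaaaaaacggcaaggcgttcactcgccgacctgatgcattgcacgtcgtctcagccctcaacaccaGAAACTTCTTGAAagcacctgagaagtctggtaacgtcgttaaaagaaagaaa

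Such a pair stood before 7 of the 15 small heat shock protein genes (46.7%) and before 15.7% of all 20528 genes. For the 16 large chaperone genes the share was 12.5%, among genes called lower 16.1%, and among those at least 2-fold lower 17.2%. HSP17.6II, the steepest fall named in the list, holds no such pair in its window.

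Among the 16 large chaperones and partners, 11 fell and 1 rose (median log2 -0.90). HSP70 (AT3G12580), a cytosolic inducible form, had 549, 561 and 390 CPM and then 41.1, 43.8 and 34.5 CPM, 12.6-fold lower (adjusted p = 3.04e-08). HSP90.1 was at 184 ± 39.3 CPM (SD, n = 3) under normal light and 15.8 ± 2.45 CPM under low light, 11.7-fold lower. AT5G48570 (ROF2), a co-chaperone of the immunophilin type, and HOP3, which bridges HSP70 and HSP90, fell by 11.6 and 7.99-fold. DREB2A, a transcription factor of drought and heat, was the 1 member that rose (2 rose without normal-light replicate 1), from 2.64, 1.76 and 1.3 to 4.33, 4.86 and 5.32 CPM. The heat shock factors were divided: of 12 tested, 3 rose and 5 fell (66.7% called, against the 33.1% of all genes). HSFA7A and HSFB2B rose by 2.26 and 1.76-fold. HSFA2, a heat-induced factor, fell by 2.04-fold, a call lost without normal-light replicate 1 or 2 or low-light replicate 1 or 3 (adjusted p up to 0.354 over the alternatives), and HSFC1 and HSFB2A fell by 1.97 and 1.95-fold. The number of factors lower was 3 without normal-light replicate 2, low-light replicate 1 or low-light replicate 3. Fes1B, an HSP70 nucleotide exchange factor, was among the largest rises of all genes, from 1.17, 1.81 and 2.2 to 17.5, 16.7 and 19.8 CPM.

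**Figure D4:**
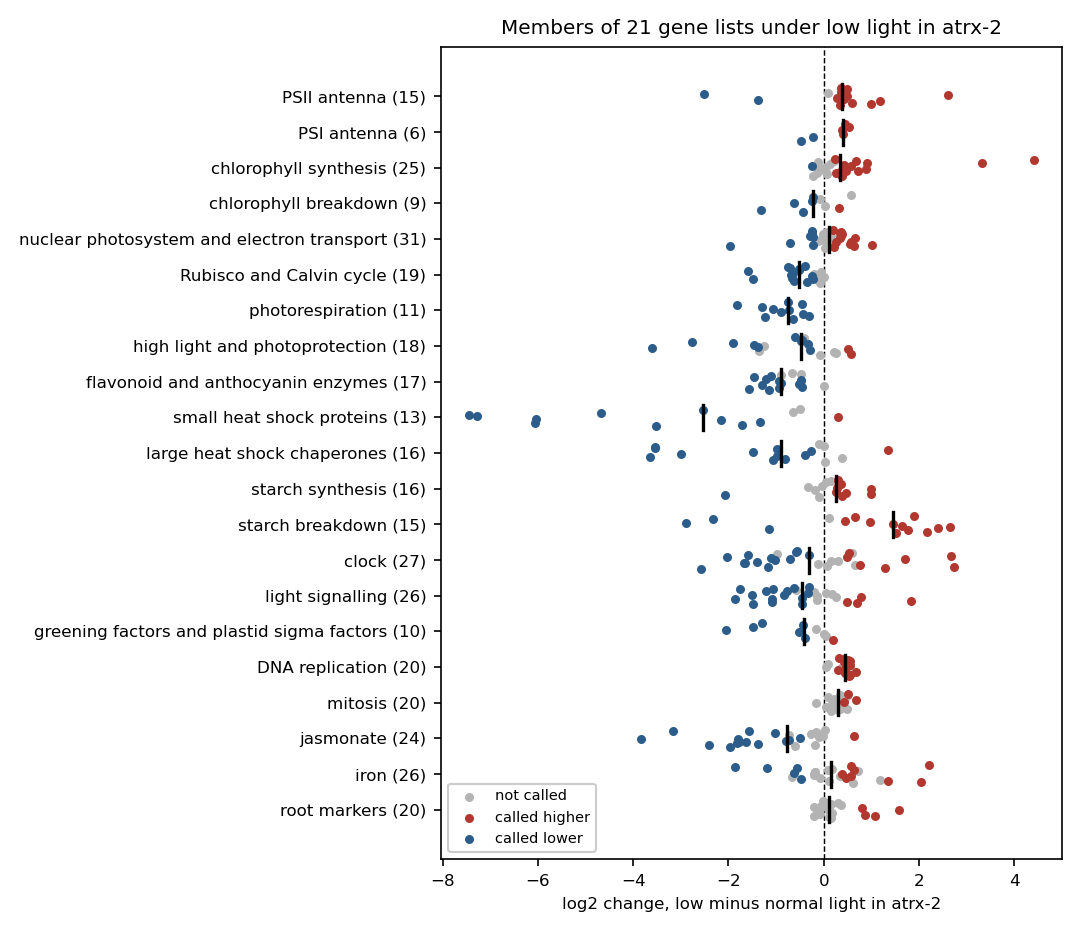
Log2 change under low light in atrx-2 (horizontal axis) of the tested members of 21 gene lists, with the number tested in brackets. Each point is a gene, red where called higher, blue where called lower and grey where not called; black bars are list medians and the dashed line is the median of all genes (0.007), with small heat shock proteins (-2.53) lowest and starch breakdown (1.45) highest of the lists drawn.

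Most starch breakdown genes rose. Of 15 tested, 11 rose and 3 fell (median log2 1.45). PHS2 (AT3G46970), the cytosolic glucan phosphorylase, had 10.7, 10.3 and 8.99 CPM under normal light and 67.0, 61.1 and 61.4 CPM under low light, 6.31-fold higher (log2 2.66, SE 0.08, adjusted p = 1.32e-10). PHS1, its plastid counterpart, rose by 5.28-fold. AMY3, a plastid alpha-amylase, went from 20.3, 23.3 and 23.7 to 95.9, 99.7 and 105 CPM, 4.47-fold higher (adjusted p = 4.99e-10), and DPE1, the disproportionating enzyme, rose by 3.72-fold. SEX1, the glucan water dikinase that starts the process, rose by 2.86-fold and DPE2 by 3.39-fold; both were chosen after their values were seen.

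The 3 members that fell were beta-amylases, while BAM4, of the same family and chosen after its values were seen, rose by 1.58-fold. CT-BMY (BAM3), the main maltose-forming enzyme of the night, had 393, 324 and 287 CPM and then 48.6, 46.6 and 39.7 CPM, 7.44-fold lower (adjusted p = 2.60e-09). BMY3 (BAM9) fell by 5.04-fold. BAM1, also chosen after its values were seen, fell by 2.22-fold. In starch synthesis, 9 of 16 rose and 1 fell (median log2 0.26). GBSS1, the granule-bound enzyme that makes amylose, was the 1 that fell, from 279, 261 and 249 to 65.5, 60.3 and 61.3 CPM, 4.22-fold. SS4, which initiates granules, rose by 1.99-fold. All of these groups were without overlap, but the genes were picked by their changes, and 46% of all genes did not overlap.

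Clock genes moved in both directions: 7 of 27 rose and 13 fell (median log2 -0.32), 74.1% called against the 33.1% of all genes. The morning-phased MYB factors fell. LHY (AT1G01060) had 299, 267 and 232 CPM and then 43.4, 47.8 and 42.1 CPM, 6.0-fold lower (log2 -2.58, SE 0.10, adjusted p = 5.52e-10), and CCA1, its partner, 191, 195 and 191 CPM and then 63.8, 62.9 and 54.1 CPM, 3.19-fold lower (adjusted p = 4.87e-09). RVE1, a relative that links the clock to auxin, fell by 4.1-fold. Some pseudo-response regulators and evening genes rose. PRR7 went from 29.7, 33.5 and 34 to 102, 103 and 112 CPM, 3.27-fold higher, and PRR5 from 0.965, 0.621 and 0.600 to 4.84, 4.05 and 5.03 CPM, 6.35-fold higher (adjusted p = 9.70e-06). FKF1, a blue light receptor of the photoperiod pathway, rose from 0.0508, 0.155 and 0.250 to 0.684, 1.35 and 1.14 CPM (adjusted p = 0.000405), and GI by 2.43-fold, the latter chosen after its values were seen. PRR9, PRR3, ELF4 and PCL1 (LUX), also chosen after their values were seen, did not pass the test, with log2 changes of -0.11, 0.59, 0.66 and 0.29 (adjusted p = 0.631, 0.224, 0.0804 and 0.0633). For PRR9, 41.1% of windows have a second match, so its value is uncertain. CDF3 did not pass the test (adjusted p = 0.203). The labels give no time of day of harvest, so its part in these values was not tested.

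PRR5 and FKF1 hold the evening element on the opposite strand, read here as AGATATTTT (in capitals).
PRR5 (chr5:8358547-8358796, minus strand): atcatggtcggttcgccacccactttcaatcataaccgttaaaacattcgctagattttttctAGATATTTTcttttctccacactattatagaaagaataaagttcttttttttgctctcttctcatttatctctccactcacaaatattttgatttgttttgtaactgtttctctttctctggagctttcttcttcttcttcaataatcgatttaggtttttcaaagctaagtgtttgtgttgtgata
FKF1 (chr1:25508389-25508638, plus strand): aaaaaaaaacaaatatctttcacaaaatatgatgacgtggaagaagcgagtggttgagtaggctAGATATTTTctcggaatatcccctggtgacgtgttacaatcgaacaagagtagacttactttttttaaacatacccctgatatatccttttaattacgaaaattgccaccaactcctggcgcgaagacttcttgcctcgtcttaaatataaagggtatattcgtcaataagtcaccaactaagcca

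Among the 27 clock genes, 5 (18.5%) hold AAAATATCT on either strand, against 2.42% of all genes. CACGTG, the G-box, stood before 9 of them (33.3%), before 7.22% of all genes and before 98 of the 888 genes that fell at least 2-fold (11%).

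Of 26 light signalling genes, 15 fell and 4 rose (median log2 -0.46). BBX18, a B-box repressor of photomorphogenesis, had 22.2, 19.6 and 15.3 CPM and then 5.59, 5.2 and 4.94 CPM, 3.64-fold lower (adjusted p = 1.70e-06). RUP2, which switches off the UV-B receptor, fell by 3.37-fold. HYH, the close homologue of the transcription factor HY5, fell by 2.82-fold, and HFR1, an atypical bHLH inhibitor of the PIF factors, by 2.80-fold. LZF1 (BBX22), a B-box activator of greening, went the other way, from 6.2, 7.2 and 6.64 to 24.4, 24.9 and 22.3 CPM, 3.57-fold higher (adjusted p = 9.53e-09). None of these 5 overlapped between the light levels, but they were named for the size of their change, and 46% of all genes did not overlap.

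The photoreceptors themselves changed little. UVR8, PHYD and PHOT1 rose by 1.39, 1.38 and 1.37-fold. CRY3 and PHOT2 fell by 1.34 and 1.22-fold, the latter with an adjusted p of 0.0577 without low-light replicate 3. CRY1 was at 158 to 181 and then 170 to 190 CPM (adjusted p = 0.529). Regulators of greening fell while the antenna genes rose: of 10 greening and plastid sigma factors, 6 fell and 1 rose (median log2 -0.41), with 0 higher without normal-light replicate 1 or 3, low-light replicate 1 or 2, or wild-type low-light replicate 3. CGA1, a GATA factor, went from 30.8, 34.7 and 26.2 to 8.83, 6.28 and 7.08 CPM, 4.12-fold lower (adjusted p = 7.79e-08). SIGE (SIG5), a sigma factor of the plastid polymerase that responds to blue light and stress, fell by 2.78-fold and GNC by 2.44-fold.

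Shade and auxin genes showed no common direction, with 8 of 34 higher and 9 lower (median log2 -0.12). This was 50% called, against the 33.1% of all genes. IAA29, an auxin response repressor that rises in shade, went from 0.660, 2.49 and 2.0 to 6.90, 7.89 and 5.37 CPM, 3.89-fold higher (adjusted p = 0.000263). XTH15, a cell wall enzyme of the same response, rose by 1.90-fold. IAA6, another auxin repressor, fell by 3.69-fold and PAR2, an atypical bHLH factor of shade, by 2.09-fold. In the list of gibberellin genes and expansins, 4 of 15 fell and 1 rose (33.3% called, against 33.1% of all genes), and EXPA5 fell by 1.91-fold while EXPA11 rose by 1.76-fold. The number lower was 2 without low-light replicate 2 or 3.

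DNA replication genes rose as a group by small steps. Of 20 tested, 16 rose and none fell (median log2 0.46), and none passed the test against a 1.5-fold change. MCM4, a subunit of the replicative helicase, had 11.2, 12.6 and 12.1 CPM under normal light and 20.3, 17.9 and 19.3 CPM under low light, 1.61-fold higher (adjusted p = 0.000243). MCM6 and PRL (MCM7), from the same ring, rose by 1.47 and 1.46-fold, PCNA1, the sliding clamp, by 1.44-fold, and AT1G09200, a replicative histone H3, by 1.47-fold. In wild type 8 of the 20 rose, but no member's interaction with genotype was called, so a difference between the genotypes was not shown. FAS1, the large subunit of the replication-coupled chaperone CAF-1, rose as well. Among 20 genes of mitosis 3 rose and none fell, 15% called against the 33.1% of all genes. The number of mitosis genes higher was 1 without normal-light replicate 1 or 3 and 8 without normal-light replicate 2.

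In the list of ATRX, H3.3 and histone chaperones, 3 of 10 rose and ATRX fell, 40% called against 33.1% of all genes. FAS1, described above, and FAS2, the second CAF-1 subunit, rose by 1.53 and 1.52-fold, the latter a call lost without any 1 mutant library except normal-light replicate 2. ASF1B, an H3-H4 chaperone, rose by 1.37-fold. AT4G40040, an H3.3 gene, was at 311, 341 and 301 and then 279, 298 and 310 CPM (adjusted p = 0.353). Of 13 Polycomb genes, 3 rose and 4 fell (53.8% called), or 2 fell without low-light replicate 3. CLF, the histone methyltransferase of PRC2, rose by 1.35-fold, and its homologue SWN was at 34.5 to 39.5 and then 28.2 to 34.3 CPM (adjusted p = 0.0546).

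In the list of Polycomb targets and flowering genes 4 of 18 rose and 3 fell, 38.9% against the 33.1% of all genes. AGL20 (SOC1), a floral promoter, went from 12.4, 16.3 and 15.6 to 24.8, 23.2 and 24.6 CPM, 1.64-fold higher (adjusted p = 4.39e-05). FT, the mobile flowering signal, went from 3.15, 1.24 and 1.1 to 0.342, 0.270 and 0.475 CPM, a log2 change of -2.28 (adjusted p = 0.00612), which was -1.63 without normal-light replicate 1 (adjusted p = 0.0337). DOG1, a seed dormancy gene, rose from 0.305, 0.0518 and 0.0999 to 1.2, 1.82 and 1.47 CPM. MAF1 (FLM), a repressor of flowering, rose by 1.39-fold.

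Iron genes gave the sole called difference between the genotypes. In atrx-2, 8 of 26 rose and 5 fell (3 without low-light replicate 1), 50% called against the 33.1% of all genes. In wild type 7 rose and 12 fell. bHLH38 (AT3G56970, chromosome 3, 21084035 to 21085245), a transcription factor of the iron deficiency response, had 5.28, 6.11 and 4.85 CPM in atrx-2 under normal light and 3.59, 3.85 and 3.13 CPM under low light. In wild type it had 8.00, 9.74 and 10.1 CPM and then 1.23, 0.461 and 1.53 CPM. The log2 change was -0.63 in the mutant and -3.13 in the wild type, a difference of 2.51 (SE 0.33, adjusted p = 0.0461). The call was lost in 11 of 19 alternative settings, with adjusted p between 7.73e-08 and 0.249. The fall within atrx-2 alone (adjusted p = 0.0317) was lost without normal-light replicate 2 (adjusted p = 0.104), low-light replicate 1 (0.0619) or low-light replicate 3 (0.119).

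The next smallest interaction p-values were not called after adjustment. AT1G47395 (IMA2), which encodes a small iron signalling peptide, had a log2 change of 1.35 in atrx-2 and -1.26 in wild type. AT1G67105, a noncoding RNA gene, changed by -2.03 against -3.66, AT1G13609, a defensin-like gene, by 2.0 against -1.95, and AT2G14247 by 0.02 against -2.15; the adjusted interaction p-values of these 4 genes lay between 0.545 and 0.978. Within the mutant, NAS2 and NAS3, nicotianamine synthases, rose by 4.6 and 4.09-fold. FRO7 and FRO6, ferric reductases of shoots, fell by 3.62 and 2.27-fold, with 24.5% and 16.2% of windows shared, so their separate values are uncertain. The root uptake genes IRT1 and FRO2, chosen after their values were seen, spread widely under low light: IRT1 had 136, 70.9 and 36.9 CPM against 46.3 to 51.0 under normal light, and FRO2 82.6, 36.2 and 19.5 against 29.7 to 30.5. Low-light replicate 1 was high and replicate 3 below the normal-light values in both.

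Jasmonate genes fell, and normal-light replicate 1 stood apart for several of them. Of 24 tested, 14 fell and 1 rose (median log2 -0.76), and 11 fell without that library. The number higher ranged from 0 to 2 with 1 library left out. VSP2, a wound-induced storage protein, went from 14.9, 17.3 and 24.3 to 2.79, 0.810 and 2.52 CPM, 8.90-fold lower (adjusted p = 5.14e-06). TIFY7 (JAZ9), a repressor of the pathway, went from 170, 122 and 108 to 38.6, 31.5 and 42.5 CPM, 3.55-fold lower. JMT, the jasmonate methyltransferase, fell by 5.30-fold. JAZ7 had 9.85, 2.69 and 2.75 CPM and then 0.228, 0.270 and 0.522 CPM, a log2 change of -3.83 that was -2.92 without normal-light replicate 1 (adjusted p = 0.00859).

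For CYP94C1, which oxidises the active hormone, the values were 8.89, 2.59 and 1.55 and then 1.48, 1.21 and 1.04 CPM. Its call rested on that library: the log2 change went from -1.80 to -0.73 without it (adjusted p = 0.176). The call was also lost without low-light replicate 2 (adjusted p = 0.0531) or 3 (0.0752). LOX4, chosen after its values were seen, behaved alike, with 19.3 CPM in that library against 4.45 and 5.0 in the other normal-light libraries, and an adjusted p of 0.299 without it. Over the 24 tested jasmonate genes, normal-light replicate 1 was the highest of the 3 normal-light libraries in 18, and it was so in 16 of the 27 clock genes and in 39% of all 20783 genes. In the list of salicylic acid and defence genes it was the highest in 13 of 19, and over 2 times the others in 8. That list had 3 members higher and 4 lower (36.8% called, against the 33.1% of all genes). Without normal-light replicate 1 it had 8 higher and 2 lower, and its median went from -0.30 to 0.34. The list had 5 members higher without wild-type normal-light replicate 2. PAD3, a camalexin enzyme, changed by -1.91 on the log2 scale with all libraries and by -0.98 without that one (adjusted p = 0.0336).

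**Figure D5:**
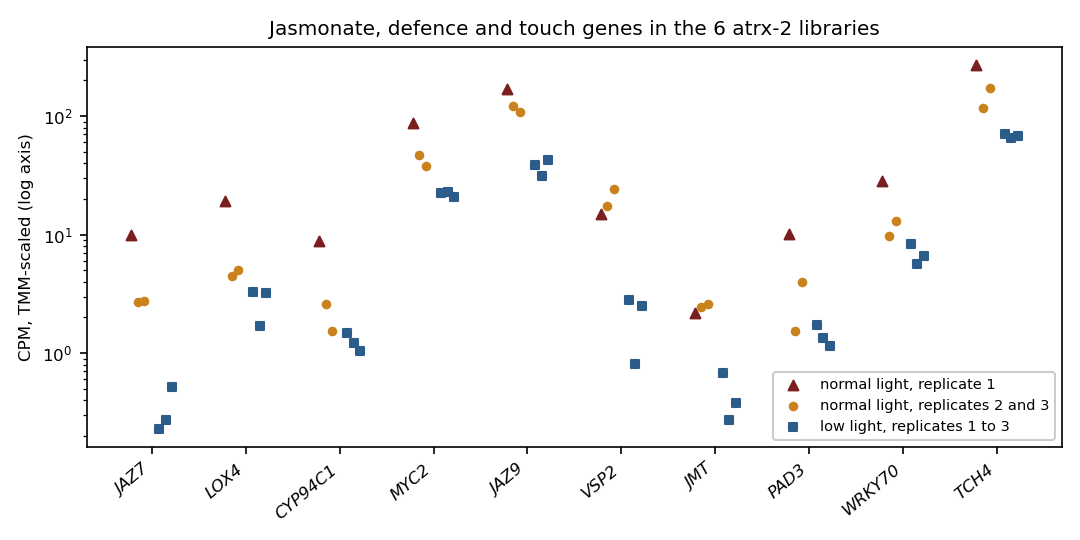
TMM-scaled CPM (log axis) of 10 jasmonate, defence and touch genes, chosen after their values were seen, in the 6 atrx-2 libraries. Dark triangles are normal-light replicate 1, orange circles the other normal-light libraries and blue squares the low-light libraries; the triangle is far above the circles for JAZ7, LOX4, CYP94C1 and PAD3 (10.2 against 1.55 and 3.95 CPM) and not for VSP2 or JMT.

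Cold and raffinose genes showed 4 falls and 2 rises among 16, 37.5% against the 33.1% of all genes. GolS1 and GolS2, galactinol synthases that supply raffinose synthesis and respond to heat and cold, fell. GolS1 went from 72.1, 69.5 and 72.9 to 11.2, 13.2 and 11.6 CPM, 5.98-fold lower (adjusted p = 2.72e-08), and GolS2 fell by 8.20-fold. LTI30, a dehydrin, rose by 2.43-fold. Markers of sugar starvation gave 5 rises and 5 falls among 26 tested genes (38.5%). TPS10 and DYL1 rose by 1.96 and 1.90-fold, DIN9 fell by 2.87-fold, and DIN10, a raffinose synthase, was at 650 to 701 and then 642 to 764 CPM (adjusted p = 0.72). The number higher was 8 without normal-light replicate 1 or without wild-type normal-light replicate 1, and the number lower 3 without low-light replicate 1 or 2.

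In nitrogen assimilation 4 of 13 rose and 3 fell, 53.8% called against the 33.1% of all genes. The number lower was 1 without normal-light replicate 1. GLT1, the NADH-dependent glutamate synthase, rose by 1.57-fold and GLU1, the ferredoxin-dependent one, fell by 1.5-fold. NIA1, a nitrate reductase, went from 375, 283 and 284 to 519, 475 and 513 CPM, 1.6-fold higher. Among glucosinolate genes, MAM1, of aliphatic chain elongation, rose by 1.49-fold, AOP2, of side chain modification, fell by 2.11-fold, and MYB34, a regulator of the indole branch, fell by 1.69-fold. Among 20 aliphatic genes 3 rose and 4 fell, with 1 higher without normal-light replicate 2 or low-light replicate 1 or 2, and among 10 indole genes 3 fell, or 2 rose and 2 fell without normal-light replicate 1 and 1 rose without normal-light replicate 3. Called shares in these lists were 35% and 30%, against 33.1% of all genes.

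Of 20 root markers 4 rose and none fell (median log2 0.11), 20% called against the 33.1% of all genes. Without normal-light replicate 3, 2 were higher and 1 lower. PLT2, a root stem cell factor, went from 1.02, 0.725 and 0.649 to 1.77, 1.69 and 1.61 CPM, and PRP1, a root hair wall protein, from 9.45, 9.68 and 9.49 to 14.7, 18.8 and 18.5 CPM. WOX5 and PLT1, which like PLT2 act in the root stem cell niche, rose by 3.0 and 1.74-fold. The call of WOX5 was lost without normal-light replicate 3 or low-light replicate 1, and that of PLT1 without normal-light or low-light replicate 3. SCR, of the endodermis, was at 35.6 to 42.8 and then 31.7 to 35.8 CPM (adjusted p = 0.0609). Leaf and shoot markers showed 2 rises and 2 falls among 10 (40% called, median log2 -0.24). The number lower was 5 without normal-light replicate 3 and 1 without low-light replicate 3. CAB3 and TMM, of the stomatal lineage, rose by 0.99 and 0.47 on the log2 scale, and CA1 and GL2, of trichomes and root hairs, changed by -0.97 and -0.34, the call of GL2 being lost without normal-light replicate 1 or low-light replicate 3. SUC2, of the phloem companion cells, was at 95.3 to 101 and then 94.3 to 102 CPM (adjusted p = 0.857).

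The largest rises were in genes nearly silent under normal light. AT1G49570, a peroxidase gene, had 0 counts over the normal-light libraries and 133 over the low-light libraries, at least 49-fold higher with the same floor. AT1G29090, a cysteine proteinase gene, had 1 and 78 counts, a ratio of 86.2 with a counting interval of 15 to 3447. PDF1.3, a defensin, went from 0.355, 0.155 and 0.05 to 8.72, 6.88 and 4.70 CPM. NRT2.3, a nitrate transporter, and PGAZAT, a polygalacturonase, rose from at most 0.155 and 0.203 CPM to 1.04 to 1.48 and 1.14 to 2.17 CPM.

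The largest falls left genes nearly silent under low light. AT4G19430, uncharacterised, had 460 counts at normal light against 1 at low light, a ratio of 416 (interval 74.4 to 16481). AT3G29970, a B12D protein gene, had 384 and 2, a ratio of 174 (47.8 to 1440). AT5G15500, an ankyrin repeat protein gene, had 129 and 0, at least 38.9-fold lower, and AT3G22275, a jasmonate ZIM-domain protein gene, 70 and 0, at least 21.1-fold lower. Of those 70 counts, 52 were in normal-light replicate 1, without which the bound was 8.15-fold. WSD1, which encodes a wax ester synthase, had 128 and 3, a ratio of 38.6 (12.9 to 190). AT1G26790, a Dof transcription factor gene, went from 7.01, 4.35 and 4.15 to 0.342, 0 and 0.0475 CPM.

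Chloroplast genome loci rose in 37 of 117 cases and fell in 2. Of these loci, 24 share their counts with another in all libraries, and with each such pair counted once 29 of 105 rose and 2 fell (median log2 0.40), 29.5% against the 33.1% of all genes. Mitochondrial loci rose in 16 of 59 cases and fell in 14, counted in the same way, 50.8% against the 33.1% of all genes. The largest gain in CPM among organelle loci was in the pair ATCG00950 and ATCG01180, at 2822, 2869 and 4973 and then 10734, 17322 and 13599 CPM. The 18S locus AT3G41768 went from 49917, 33517 and 81219 to 98362, 166931 and 122253 CPM, 2.35-fold higher (adjusted p = 0.00311). Of its 50-base windows 94.3% have a second match, so its separate value is uncertain. Of 300 cytosolic ribosomal protein genes, 12 rose and 13 fell, 8.33% against the 33.1% of all genes. The number of these higher was 1 without normal-light replicate 3, and 3, 5 and 6 without low-light replicates 1, 2 and 3. The number lower was 7 without normal-light replicate 1 and 8 without low-light replicate 3.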

How the data were processed

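Each deposited table holds estimated counts that the authors made with kallisto 0.42 against TAIR10, per the submitters' processing notes. DESeq2 is listed there as well. Whether counting used strand is not given in the sources used here. Reads were 50 bases, single, per the labels' protocols. Each table lists 1 transcript per gene, and 12.3% to 13.9% of values were not whole (tolerance 1e-06); they were rounded. TPM columns were not used.

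Counts of all 12 libraries were fitted as 4 groups with edgeR 4.0.16 (R 4.3.3): filterByExpr, TMM, quasi-likelihood F test, two-sided, 8 residual degrees of freedom, biological coefficient of variation 10.4%, Benjamini-Hochberg adjustment over 20783 genes. "Rose" and "fell" mean an adjusted p under 0.05. The edgeR steps were run on simulated counts with known changes planted in the low-light mutant libraries. Far fewer genes were changed there than were called here, so that run does not check the scaling of these data. Alternatives were DESeq2 1.42.0, RLE and upper-quartile factors, no filter, a filter of 5 CPM, leaving out 283 organelle and ribosomal RNA loci, a replicate block, the 6 mutant libraries alone, a test against a 1.5-fold change, leaving out each library, and lists without 29 members whose symbol the annotation lacks. Counting intervals (95%) and floors cover counting error only.

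The members and the 40 gene lists were chosen with earlier results of these data known. Named genes were the 12 largest rises and falls of at least 1 CPM without overlap, the 10 largest CPM changes in each direction, up to 6 called members per list by size of change, the most abundant uncalled member, ATRX and the 5 smallest interaction p-values. Names, gene coordinates and upstream stretches came from RefSeq TAIR10.1, which held 32835 of 33602 loci. List members and named genes were checked for 50-base windows with a second match. Motifs were searched in the 250 bases before each gene start of the genome, since no promoter table was used here.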

Additional observations from a re-analysis of the deposited data

Results flagged for a closer look

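The response of bHLH38 to low light differed between the genotypes at the threshold in a test of the difference itself: the interaction was 2.51 on the log2 scale (atrx-2 minus wild type, adjusted p = 0.0461, edgeR). That call was lost in 11 of 19 alternative settings, with adjusted p between 7.73e-08 and 0.249. The level fell in 3 of 3 low-light libraries below every normal-light library in both genotypes. Its close relatives bHLH39, BHLH100 and BHLH101, chosen after their values were seen, had log2 changes of -0.18, -0.66 and 0.18 in atrx-2 and -1.63, -2.38 and -1.11 in wild type, and none of their interactions was called.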

How the results depend on the processing

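Of the 248 called genes under the naming rule, 133 kept their call in every alternative run for them, 18 to 21 a gene, 205 in all but the test against a 1.5-fold change, and none changed sign. The number of genes higher and lower in atrx-2 was 2926 and 3228 with DESeq2, and 492 and 782 against a 1.5-fold change. With the 6 mutant libraries alone it was 3140 and 3328. Leaving out 1 library gave 2495 to 3469 higher and 2777 to 3626 lower in atrx-2, 2687 to 3641 and 2957 to 3862 in wild type, and 0 to 2 genes with an interaction. The interaction count was 3 with DESeq2 and 0 with a filter of 5 CPM. AT2G14247, not called, reversed without normal-light replicate 3 (-0.19), low-light replicate 1 (-0.06) and low-light replicate 2 (-0.04), and lay between -0.19 and 0.17 over all such settings. The causes were not tested. Other scalings moved the median of all genes to at most 0.019.

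Within the mutant the replicate numbers showed no pairing: same-numbered atrx-2 libraries had correlations of -0.02, -0.10 and -0.02 between their deviations from the group means. Across the genotypes, same-numbered low-light libraries had 0.0886, 0.0894 and 0.153, and low-light libraries with unlike numbers -0.123 to 0.0308. Same-numbered normal-light libraries had -0.052, -0.137 and 0.18. A batch shared by replicate number was not tested beyond the block. With a replicate block the counts were 3577 higher and 3657 lower in atrx-2 and 0 interactions.

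Depth limits genes with few counts: the libraries hold 16110578 to 21435554 counts each, with 3 in a group.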

Other observations

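Genes annotated as lncRNA (156), ncRNA (98) or antisense RNA (3), counted as 1 set, were called less often higher than lower: of 257 tested, 7 rose (2.72%) and 38 fell (14.8%) in atrx-2, and in wild type 9 rose and 42 fell. Protein-coding genes gave 16.3% higher and 17.1% lower of 19942 tested. The library kit's strand setting is not known here, so reads of an antisense partner cannot be told apart from those of the gene.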
